A study of Drosophila melanogaster with 8 samples.

Results

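Annotated transposon insertions are entries of the *Drosophila melanogaster* gene annotation in which a single copy of a mobile element, at a fixed place in the genome, is counted as a feature of its own beside the genes. The count table held 23932 features, 5416 of which were such insertions. The 306 insertions described here averaged 20 or more normalized counts in EmcOE brains or in Control brains, where a normalized count is the number of read pairs scaled for library size with TMM. The values of both groups chose the members, so an insertion with few pairs in 1 group entered through the other group. Of the insertions left out, 2461 had no count in any sample and 2649 had counts but stayed below the minimum.

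The EmcOE brains came from the cross elavC155-Gal4>UAS-emc. The Gal4 of this driver is made in neurons and there switches on a transgene for Extramacrochaetae (Emc), a helix-loop-helix protein without a basic domain that binds and inhibits Daughterless. The Control brains came from the cross elavC155-Gal4 x white*, so both groups carried the driver, and the line crossed to it differed. Each group had 4 biological replicates of brains dissected from flies 0 to 1 day old with males and females pooled. The libraries were made from polyadenylated RNA and counted without strand. An insertion can be present in the genome of 1 fly line and absent from another, and the DNA of these lines was not analysed here. More RNA from a copy and the presence of that copy in only 1 cross therefore cannot be told apart, nor can, in bulk tissue, fewer cells of a type and less RNA per cell.

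Transposons are grouped by how they move. Retrotransposons are copied through RNA: the LTR elements, such as *copia*, *roo*, *412* and *blood*, resemble retroviruses, and the non-LTR elements, such as *I*, *Juan*, *Doc* and *F*, resemble mammalian LINEs. In flies the non-LTR elements *HeT-A* and *TART* also form the ends of the chromosomes. DNA transposons with terminal inverted repeats, such as *pogo*, *H* (hobo) and *1360*, are cut out and reinserted by a transposase, and *INE-1* is a short and very numerous element, related to Helitrons, that has long lost the ability to move. Small RNAs bound by Argonaute proteins silence transposons, the piRNA pathway mainly in the gonads and the siRNA pathway in body tissues.

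The libraries held 20751513 to 41619980 counted pairs, with EmcOE replicate 1 the largest. All 5416 insertions together took 0.129% to 0.145% of the pairs in the EmcOE samples and 0.115% to 0.123% in the Control samples, and these ranges did not overlap. These are shares of raw counts, without the TMM scaling used for the levels below. With TMM the summed levels of the 306 members overlapped, at 23634 to 25705 in EmcOE and 22226 to 24930 in Control samples. The targeted gene *emc* had 6038 ± 209 normalized counts in EmcOE brains and 4966 ± 177 in Control brains (SD, n = 4 each), a log2 fold change of 0.29 (SE 0.043, adjusted p = 0.00246, edgeR's quasi-likelihood test with Benjamini-Hochberg adjustment). Its partner *da*, which encodes Daughterless, had 1888 ± 71.3 and 1890 ± 35.0 (adjusted p = 0.977). Of the marker genes, 0 of 8 neuronal, 0 of 8 photoreceptor and 0 of 6 muscle genes were called, and 1 of 7 glial and 2 of 5 hemocyte genes were lower in EmcOE. Of 8 fat body markers, 6 were higher in EmcOE, with summed levels of 2443 to 3720 in EmcOE samples and 1014 to 1765 in Control samples. Markers of the germline, the tissue best known for active transposons, were nearly absent: 2 of 6 were tested, 0 were called, and they summed to 35.5 to 43.5 in EmcOE samples and 59.6 to 95.9 in Control samples. The part of these other cells in the results below was not tested.

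The 306 insertions belonged to 65 element families and were 20 to 17552 bases long, with a median of 685 bases. *INE-1* made up 124 of them, and the rest were 63 non-LTR elements, 60 LTR elements, 57 elements with terminal inverted repeats and 2 foldback elements. The fourth chromosome carried 140 of the members (45.8%), while 49 lay on 2R, 33 on 3L, 31 on 3R, 30 on 2L and 23 on X. In the whole table the fourth chromosome had 565 insertions and 2R had 1358. Most members, 198 (64.7%), lay inside a gene but outside its exons, 87 lay between genes and 21 shared bases with a gene's exon. Their counts were low, with a median of 38.5 normalized counts over all samples against 562 for all features tested, and the median SE of their log2 fold changes was 0.24 against 0.085. Values near the minimum were not distinguishable from it: 1360{}1480 (FBti0020404) averaged 18.4 in EmcOE and 20.01 in Control samples and was kept, while INE-1{}2236 (FBti0060297) averaged 19.9 in EmcOE and 10.2 in Control samples and was not.

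Of the 306 members, 259 were not called. The log2 fold change was under 0.2 in size for 121 of them, and its median over the members was 0.094, beside 0.013 for all 9788 features tested. A call required an adjusted p no higher than 0.05 together with a change no smaller than 0.2 on the log2 scale. By this rule 27 members were higher and 20 lower in EmcOE (15.4% of the members), beside 8.68% of all features tested, and by direction 8.82% of the members were higher and 6.54% lower beside 3.57% and 5.12%. The choice of members favours calls, since 17 of the 27 had passed the minimum in EmcOE brains alone and 9 of the 20 in Control brains alone. A minimum of 20 on the mean over all 8 samples does not use the groups. It kept 269 members, of which 13 were higher and 14 lower (4.83% and 5.20%), beside 3.23% and 5.14% of the 9620 features it kept, so the share of calls was then near that of other features.

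Many of the called differences were large. The change was 1 or more on the log2 scale for 23 of the higher and 13 of the lower members, 7.52% and 4.25% of 306, beside 0.96% and 1.05% of all features tested (2.01% in either direction). With the minimum on the mean of all samples these were 9 and 7 members, 3.35% and 2.60% of 269, beside 0.717% and 0.863%. The 2 groups of samples did not overlap for 34 members higher and 24 members lower in EmcOE, 19.0% of the members beside 16.9% of all features tested (8.6% above and 8.26% below), and the 47 called members were all among these 58. In the plot of group means the members with large changes lie away from the diagonal, while the 259 members not called follow it more closely.

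**Figure D1:**
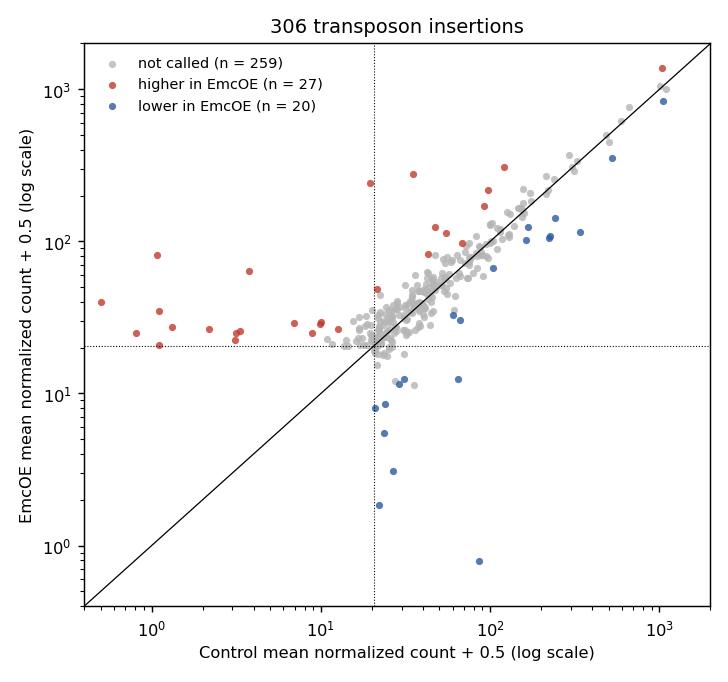
Mean normalized count of each of the 306 insertions in EmcOE brains (vertical axis) against Control brains (horizontal axis), n = 4 each, both on log scales after adding 0.5; the solid line marks equal means and the dotted lines the minimum of 20. Red points are the 27 insertions called higher in EmcOE, blue points the 20 called lower and grey points the 259 not called; the region below the minimum in both groups is empty because of how members were chosen.

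The largest differences were in copies with almost no pairs in 1 group. I{}1441 (FBti0019446, 3R:28068558-28073928, 5371 bases, inside *trv*) is a copy of the *I* element, a non-LTR retrotransposon known for hybrid dysgenesis in flies. It had 43.5, 48.6, 33.1 and 32.2 normalized counts in EmcOE replicates 1 to 4 and 0 in each Control replicate. Against a floor of 3 counts per library it was at least 11.4-fold higher in EmcOE. It entered through EmcOE brains alone and had a mean below 20 over all samples, so its difference is a description. The other strongly differing copy of the family, I{}1078 (FBti0020189, 3L:21365893-21371264, between genes), had 87.5, 80.6, 86.2 and 69.8 in EmcOE brains and 0, 1.08, 1.22 and 0 in Control brains. It also passed the minimum in EmcOE brains alone, but its mean over all samples was above 20. The groups were far apart, with 372 pairs against 2, a ratio of 143.5 (exact 95% interval 39.5 to 1190, counting error only; adjusted p = 3.70e-06). The third member of the family had a log2 fold change of -0.38 and was not called.

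Several other long retrotransposon copies showed the same pattern, and most were below a mean of 20 over all samples, so their values are given without a test. The LTR element copy 412{}5 (FBti0019524, X:551477-558981, inside *Appl*, the fly amyloid precursor protein-like gene) had 23.7, 27.3, 18.04 and 28.8 in EmcOE and 0, 0, 1.22 and 0 in Control samples, a ratio of 84.1. The non-LTR copy Juan{}1190 (FBti0019286, inside *CG32944*) averaged 20.49 ± 5.96 in EmcOE and 0.61 ± 1.22 in Control samples (SD, n = 4 each). In both cases a single Control replicate, the third, held all the Control pairs. Ivk{}1704 (FBti0059765, between genes on X, with 46.7% of its bases shared with other insertions) averaged 26.8 ± 10.8 in EmcOE and 0.81 ± 1.62 in Control samples, and 17.6{}1213 (FBti0019299, inside *plh*) averaged 26.0 ± 12.8 and 1.67 ± 1.90. F{}1209 (FBti0019296) averaged 25.2 ± 5.199 in EmcOE and 2.815 ± 1.82 in Control samples. Doc{}1053 (FBti0020164) had 21.9 ± 5.76 and 2.60 ± 1.11, and HMS-Beagle{}347 (FBti0019154) had 28.5 ± 7.41 and 6.48 ± 4.61. For all of these copies every EmcOE sample was above every Control sample.

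The *roo* element, an LTR retrotransposon, had 1 copy of this kind. It passed the minimum in EmcOE brains alone but was also above a mean of 20 over all samples. This was roo{}1189 (FBti0019285, 3R:4366813-4375137, 8325 bases), of which 1.17% lay in exons of *CG1090* and lncRNA:CR44922. It had 66.6, 66.4, 55.1 and 66.5 normalized counts in EmcOE and 1.10, 1.08, 2.44 and 8.39 in Control samples. The highest Control sample, replicate 4, was far below the lowest EmcOE sample, and the log2 fold change was 4.28 (SE 0.42, adjusted p = 0.000156). The other 2 *roo* copies were not called, with log2 fold changes of 0.11 and 0.55.

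**Figure D2:**
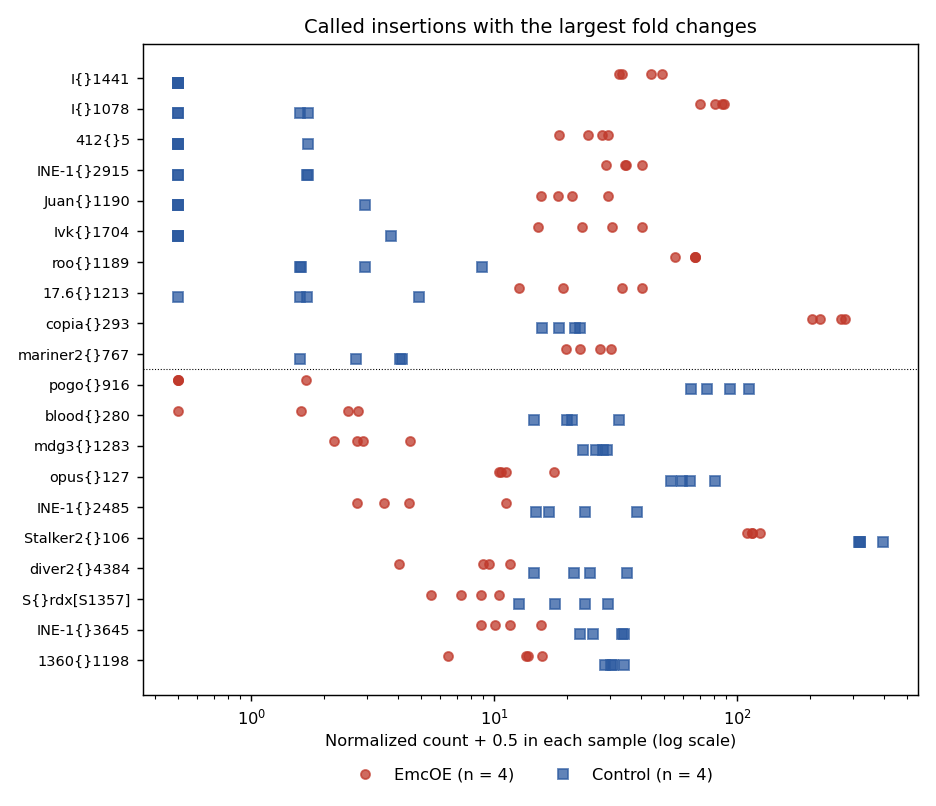
Normalized count of each sample, plus 0.5 on a log axis, for the 10 called insertions with the largest log2 fold changes in each direction; red circles are the 4 EmcOE samples and blue squares the 4 Control samples. Above the dotted line all EmcOE samples lie to the right of all Control samples, and below it all lie to the left, with I{}1441 at 0 in all 4 Control samples and pogo{}916 at 0 in 3 of 4 EmcOE samples.

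*copia*, an LTR retrotransposon whose RNA is abundant in flies, had 7 members, and they went in both directions. copia{}293 (FBti0019110, 2L:2294097-2299243, between genes) had 201.5, 277, 217.5 and 266 normalized counts in EmcOE and 20.9, 15.2, 21.9 and 17.97 in Control samples. Its log2 fold change was 3.66 (SE 0.17, adjusted p = 4.71e-07). This copy passed the minimum in EmcOE brains alone, with a Control mean just below 20, but its mean over all samples was above 20. The next copy, chosen for description after its values were seen, was copia{}920 (FBti0020031, 3L:3601354-3606606, inside *Eip63E*, a cyclin-dependent kinase gene). It had 249.5, 274, 276 and 308 in EmcOE and 26.5, 33.6, 29.3 and 47.9 in Control samples, a log2 fold change of 3.01 (SE 0.17, adjusted p = 2.08e-06). In both copies the lowest EmcOE sample lay far above the highest Control sample. In the other direction, copia{}1467 (FBti0019469, inside *Gprk2*), also named after its values were seen, averaged 123 ± 3.16 in EmcOE and 168 ± 21.1 in Control samples (log2 fold change -0.45, adjusted p = 0.0323). That call was lost without any 1 of 6 of the samples (adjusted p 0.0606 to 0.0797). The remaining 4 copies were not called, with log2 fold changes of -0.64 to 0.48. Summed over the 7 copies the level was 831 ± 89.3 in EmcOE and 430 ± 26.3 in Control samples, a ratio of 1.93 set mainly by the 2 higher copies.

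Among the insertions with lower counts in EmcOE, the largest difference was in pogo{}916 (FBti0020027, 3L:3051802-3051984), a fragment of 183 bases of the DNA transposon *pogo*, 37 bases from *CG32485*. It had 0, 1.19, 0 and 0 normalized counts in EmcOE and 64.0, 74.8, 92.7 and 111 in Control samples. It passed the minimum of 20 in Control brains alone, and its mean over all samples was also above 20. The groups were separated by 1 pair against 296, a Control to EmcOE ratio of 383.6 (exact 95% interval 68.3 to 15201; adjusted p = 7.02e-06). Several of the other large differences were in LTR elements. blood{}280 (FBti0019096, inside *Plc21C*, a phospholipase C gene) had 2.26, 0, 2.0 and 1.11 in EmcOE and 32.0, 14.1, 19.5 and 20.4 in Control samples. mdg3{}1283 (FBti0019350, inside *CG42795*) averaged 2.57 ± 1.00 and 26.2 ± 2.59. Both had a mean below 20 over all samples and no sample of 1 group within the range of the other.

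2 LTR copies on the X chromosome lay well above the minimum in Control brains. opus{}127 (FBti0019055, X:14551699-14559302) had 10.2, 10.7, 17.0 and 9.98 in EmcOE and 80.5, 53.1, 58.5 and 63.5 in Control samples, a log2 fold change of -2.41 (SE 0.25, adjusted p = 0.00024). Stalker2{}106 (FBti0019625, X:11312119-11319407) had 114.6, 123, 109 and 114 in EmcOE and 316.5, 320, 319 and 398 in Control samples, a log2 fold change of -1.55 (SE 0.098, adjusted p = 5.85e-06). In each copy the spread within a group was small beside the gap between groups. A different Stalker2 copy, named after its values were seen, was higher: Stalker2{}1255 (FBti0020321, on 3R) averaged 82.5 ± 8.61 in EmcOE and 42.3 ± 7.37 in Control samples (log2 fold change 0.96, adjusted p = 0.00646). The other 4 copies of this family were not called, with log2 fold changes of -0.34 to -0.036. accord{}818 (FBti0018951, 2R:12862330-12867554, inside *CG17574*), an LTR copy also chosen after its values were seen, averaged 108 ± 24.0 in EmcOE and 226 ± 27.5 in Control samples (log2 fold change -1.07, SE 0.15, adjusted p = 0.00197).

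Taken by class, 9 of 60 LTR members were higher and 7 lower (26.7% called), 8 of 63 non-LTR members were higher and 2 lower (15.9%), 3 of 57 members with terminal inverted repeats were higher and 8 lower (19.3%), and 7 of 124 *INE-1* members were higher and 3 lower (8.06%), beside 8.68% of all features tested. With a mean of at least 20 over all samples the called members were 6 higher and 4 lower of 54 LTR, 1 higher and 2 lower of 52 non-LTR, 2 higher and 7 lower of 48 inverted-repeat and 4 higher and 1 lower of 113 *INE-1* members. These were 18.5%, 5.77%, 18.8% and 4.42% of each class in that order, beside 8.37% of all features kept by this minimum. Thus 7 of the 8 higher non-LTR copies had a mean below 20 over all samples.

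The telomeric retrotransposons gave 1 call. The 11 *HeT-A* members, 10 of them at the end of the fourth chromosome, summed to 1500.5 ± 97 in EmcOE and 1493 ± 136 in Control samples. HeT-A{}6278 (FBti0102121), the copy with the most pairs, had 472, 488, 451 and 376 in EmcOE and 476, 439, 550 and 544 in Control samples, and the groups overlapped (log2 fold change -0.16, adjusted p = 0.331). HeT-A{}6268 (FBti0102111) had a log2 fold change of 0.36 (adjusted p = 0.0883). Only HeT-A{}6274 (FBti0102117), noted after its value was seen, was called: it averaged 29.8 ± 14.5 in EmcOE and 65.8 ± 9.55 in Control samples (log2 fold change -1.09, adjusted p = 0.0408), and the call was lost without any 1 of 7 of the samples (adjusted p 0.0709 to 0.107). Named after its values were seen, TART-A{}6261 (FBti0102104, 12349 bases) had 44.6, 33.2, 58.1 and 39.9 in EmcOE and 14.3, 31.4, 14.6 and 27.6 in Control samples. These groups did not overlap but the difference missed the threshold (log2 fold change 1.00, SE 0.31, adjusted p = 0.0679). The 2 *TART-A* members summed to 312 ± 53.9 in EmcOE and 236 ± 49.8 in Control samples, a ratio of 1.32 with overlapping ranges. The single *TART-C* member averaged 130 ± 31.6 and 98.9 ± 11.04 and the *TART-B* member 109 ± 23.8 and 126 ± 22.7, and neither was called.

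Copies of DNA transposons included the insertion with the highest level of all. H{}84 (FBti0019603, X:8293303-8296283, inside *nAChRalpha3*, a nicotinic acetylcholine receptor subunit gene) is a copy of hobo. It had 1387, 1493, 1211 and 1387 normalized counts in EmcOE and 974, 980, 1112 and 1068 in Control samples (log2 fold change 0.41, SE 0.069, adjusted p = 0.00482). All EmcOE samples were above all Control samples, and *nAChRalpha3* itself was higher in EmcOE by a log2 fold change of 0.35 (adjusted p = 0.00362). 2 neighbouring hobo fragments on 3R near lncRNA:CR43685, chosen after their values were seen, were lower: H{}1735 (FBti0059796) averaged 105 ± 14.0 in EmcOE and 221 ± 11.2 in Control samples (log2 fold change -1.06, adjusted p = 0.000214), and H{}1737 (FBti0059798) averaged 102 ± 9.29 and 162 ± 28.5 (-0.66, adjusted p = 0.0134). The lncRNA gene next to them was not called (0.054, adjusted p = 0.741).

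Of 24 members of *1360*, an element common in the heterochromatin of the fourth chromosome, 1 was higher and 3 lower. 1360{}1514 (FBti0020422, on the fourth chromosome, between genes) had 344, 338, 377 and 364 in EmcOE and 535, 455, 566 and 536 in Control samples, without overlap (log2 fold change -0.55, SE 0.081, adjusted p = 0.00227). 1360{}1198 (FBti0020301, inside *CG34357*) averaged 11.9 ± 4.09 in EmcOE and 30.4 ± 2.30 in Control samples (-1.31, adjusted p = 0.0183). This copy passed the minimum in Control brains alone, and its mean over all samples was 21.2. 1360{}1463 (FBti0020393, inside *cindr*, an adaptor protein gene), noted after its value was seen, was higher by 1.19 (adjusted p = 0.0175), a call lost without EmcOE replicate 3 or Control replicate 2 (adjusted p 0.0524 and 0.0567). The mariner copy mariner2{}767 (FBti0018999, inside *Glo1*, with 13.7% of its bases in exons of asRNA:CR44201) averaged 24.4 ± 4.65 in EmcOE and 2.64 ± 1.23 in Control samples. This copy passed the minimum in EmcOE brains alone, so its difference is a description. *Glo1* was not called (-0.15, adjusted p = 0.505).

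*INE-1* gave 3 of the 10 members with the highest means, and the share of its members called, 8.06%, was near the 8.68% of all features tested. INE-1{}3385 (FBti0061446), INE-1{}3381 (FBti0061442) and INE-1{}3383 (FBti0061444) lie outside the exons of *CaMKII*, a gene of the fourth chromosome for a calcium and calmodulin dependent kinase of neurons. The first of these had 901, 1043, 1158 and 1092 normalized counts in EmcOE and 931, 926, 1107 and 1076 in Control samples, and its groups overlapped. INE-1{}3381 was above all Control samples in all 4 EmcOE samples, with a log2 fold change of 0.22 that missed the threshold (adjusted p = 0.0754), and INE-1{}3383 had 0.061 (adjusted p = 0.689). Other well covered members that were not called were Cr1a{}6093 (FBti0064154), with 935 to 1136 in EmcOE and 994 to 1168 in Control samples, and hopper2{}4186 (FBti0062247), with 448 to 573 and 438 to 516.

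The called *INE-1* members were fragments of 46 to 612 bases. INE-1{}2915 (FBti0060976, 3R:11807583-11807783, 201 bases, inside *ClC-a*, a chloride channel gene) had 28.2, 34.4, 34.1 and 39.9 in EmcOE and 0, 0, 1.22 and 1.20 in Control samples, a ratio of 57.5. It passed the minimum in EmcOE brains alone, so this ratio is a description. *ClC-a* was itself higher in EmcOE, by a log2 fold change of 0.47 (adjusted p = 0.00104). INE-1{}2485 (FBti0060546) shared 46.3% of its bases with exons of *d4* and averaged 4.96 ± 3.87 in EmcOE and 23.0 ± 10.9 in Control samples. It passed the minimum in Control brains alone, so its difference is a description, and its call was lost without EmcOE replicate 3. INE-1{}3645 (FBti0061706, inside *CG9766*) averaged 11 ± 2.92 in EmcOE and 28.4 ± 5.84 in Control samples. This fragment passed the minimum in Control brains alone, so its difference is a description. INE-1{}3643 (FBti0061704, 100 bases from *CG9766*, named after its value was seen) averaged 141 ± 24.4 in EmcOE and 240 ± 17.9 in Control samples (log2 fold change -0.76, adjusted p = 0.0048). *CG9766* was lower as well (-0.68, adjusted p = 0.000765). INE-1{}3470 (FBti0061531, 2R:25255992-25256184, between genes), also named after its value was seen, averaged 169 ± 22.9 in EmcOE and 91.5 ± 8.91 in Control samples (0.89, adjusted p = 0.00236).

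The remaining called members that had passed in 1 group alone were small or thinly covered. In EmcOE these were Cr1a{}412 (FBti0019203, inside *cyst*) with 24.5 ± 4.59 against 8.36 ± 1.30 in Control samples, X{}278 (FBti0019093, inside *Cda5*) with 28.1 ± 8.81 against 9.31 ± 3.70, INE-1{}6119 (FBti0064180, inside *CG1909*) with 28.9 ± 8.64 against 9.55 ± 7.50, and INE-1{}2333 described below. Lower in EmcOE were diver2{}4384 (FBti0062445, near *RpL10*) with 8.03 ± 3.19 against 23.5 ± 8.63 in Control samples and S{}rdx[S1357] (FBti0019372, inside *rdx*) with 7.51 ± 2.12 against 20.4 ± 7.19. The differences of these members are a description. Of them, X{}278, INE-1{}6119, diver2{}4384 and S{}rdx[S1357] lost their calls without any 1 of 6, 7, 6 and 3 of the samples. Of all 47 calls, 20 of the 27 higher and 11 of the 20 lower ones held in each of the 8 fits that left out 1 sample.

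Calls were uneven along the genome. On 3R, 8 of 31 members were higher and 9 lower (54.8% called), and on 3L 8 of 33 were higher and 2 lower (30.3%). On the fourth chromosome 2 of 140 were higher and 4 lower (4.29%), and on 2R 2 of 49 in each direction (8.16%). Other features tested were called at 8.24% on 3R, 8.75% on 3L, 2.35% (2 of 85) on the fourth chromosome and 9.57% on 2R. With a mean of at least 20 over all samples 3R and 3L again had the highest shares, with 9 of 22 members called on 3R, 7 of 28 on 3L, 3 of 21 on X, 2 of 43 on 2R, 1 of 24 on 2L and 5 of 131 on the fourth chromosome. Members on 1 arm are not independent of each other where they share a gene or lie side by side.

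**Figure D3:**
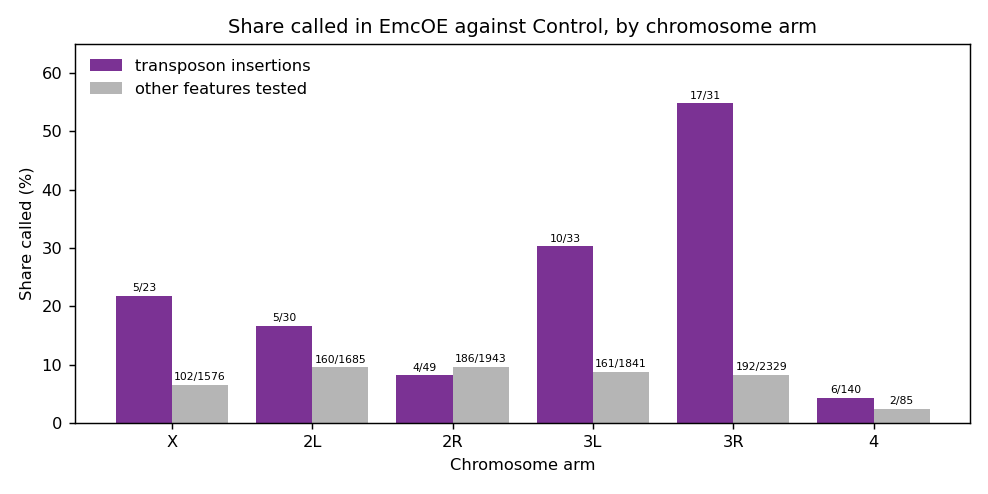
Share of features called in either direction in EmcOE against Control, in percent, on each chromosome arm; purple bars are the transposon insertions and grey bars all other features tested, with the number called and the number tested above each bar. The share of insertions is highest on 3R (17 of 31) and lowest on the fourth chromosome (6 of 140); members that passed the minimum in only 1 group are included.

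2 stretches at the inner ends of the arms of chromosome 3, chosen after the values were seen, held a large part of these calls. Between 4200000 and 5100000 on 3R lay 15 members, 4 of them higher and 3 lower, and 69 other tested features, 1 of them higher and 9 lower. The 4 higher members, roo{}1189, Juan{}1190, F{}1209 and 17.6{}1213, had passed the minimum in EmcOE brains alone. The lower members 1360{}1198 and INE-1{}3645 had passed it in Control brains alone, so the choice of members favoured these calls. Of these only roo{}1189 and 1360{}1198 had a mean of at least 20 over all samples. Of the other tested features here 14.5% were called, beside 8.68% of all features tested. Between 23000000 and 24000000 on 3L lay 19 members, 5 higher and 1 lower, and 11 other tested features, 0 higher and 1 lower. Here the higher INE-1{}2333 and the lower diver2{}4384 had passed the minimum in 1 group alone. In this stretch the gene *nrm*, which encodes the adhesion protein Neuromusculin, held 5 members with log2 fold changes of 0.28 to 1.40. INE-1{}3227 (FBti0061288) had 196, 204, 221.5 and 244 in EmcOE and 101.5, 70.4, 99.97 and 115.02 in Control samples, without overlap (1.17, SE 0.15, adjusted p = 0.000822). Its neighbour INE-1{}3239 (FBti0061300) averaged 123 ± 30.5 in EmcOE and 46.7 ± 6.75 in Control samples (1.40, adjusted p = 0.0024), while the gene *nrm* was not called (0.16, adjusted p = 0.17).

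In the same stretch *CG17698* held 7 members of 4 families within a few kilobases, all with positive log2 fold changes, of 0.64 to 1.10. opus{}2366 (FBti0060427) had 112, 114.9, 106 and 119.7 in EmcOE and 56.2, 37.9, 46.3 and 77.9 in Control samples (1.06, SE 0.20, adjusted p = 0.00826). INE-1{}2333 (FBti0060394), a fragment of 46 bases, averaged 26.2 ± 4.32 in EmcOE and 12.1 ± 1.5 in Control samples. It passed the minimum in EmcOE brains alone, so its difference is a description, and its call was lost without any 1 of 4 of the samples. The exons of *CG17698* had a log2 fold change of 0.19 (SE 0.049, adjusted p = 0.0368), just under the size a call required. invader2{}1169 (FBti0020280, 3L:23271761-23276816), an LTR copy with 11.6% of its bases in exons of lncRNA:CR46475, averaged 309 ± 51.7 in EmcOE and 120 ± 40.4 in Control samples (1.36, SE 0.22, adjusted p = 0.00402). These 3 places were picked from the values and get no test as groups.

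Length went with the calls. Of the 56 members of 4000 bases or more, 14 were higher and 8 lower (39.3% called), against 9.66% of the 176 members under 1000 bases. Of all features tested 8.68% were called, so the short members were near that share. Of the 14 members called higher with a log2 fold change above 2, 12 were at least 4000 bases long. With a mean of at least 20 over all samples 6 higher and 6 lower were called among 45 long members (26.7%), against 5.13% of 156 under 1000 bases. Over all features kept by this minimum the share was 8.37%. Off the fourth chromosome 21 of 46 long and 15 of 75 short members were called, and on it 1 of 10 and 2 of 101. Pairs that map to several copies are not counted by default in the counter used, so the counts of a long, recently copied element rest on the bases in which a copy differs from the others and on its flanks.

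**Figure D4:**
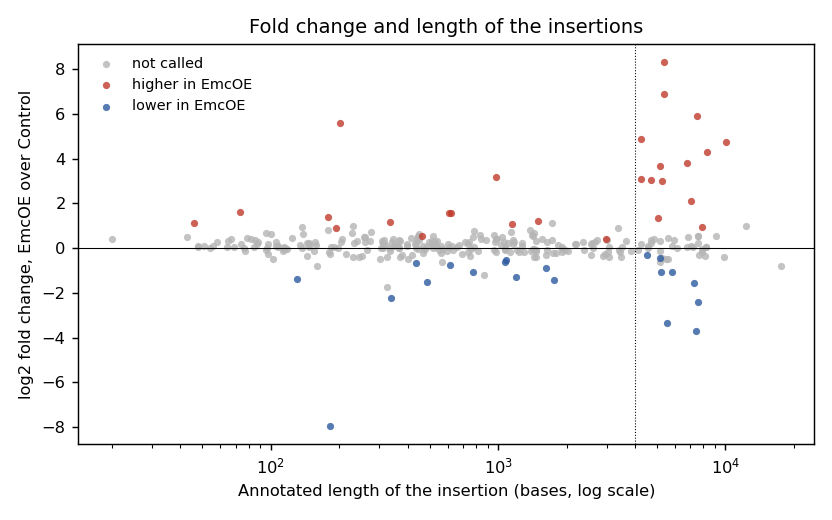
Log2 fold change (EmcOE over Control) of each insertion against its annotated length in bases (log axis), with red points for members called higher, blue for members called lower and grey for members not called; the dotted line marks 4000 bases. Of the 36 called members with a change of 1 or more on the log2 scale, 19 lie to the right of this line, and INE-1{}2915 and pogo{}916 have the largest changes to its left; fold changes of members at or near 0 in a group depend on the prior count of the model.

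An insertion inside a gene can collect pairs from the gene's unspliced RNA, so each was set beside its host. 212 members lay inside a gene, and the host of 203 was tested, 112 genes in all, of which 10 were called. This was near the 8.68% called among all features tested. Among the 19 higher members with a tested host, the host was also higher for 3 (I{}1441 in *trv*, INE-1{}2915 in *ClC-a* and H{}84 in *nAChRalpha3*), lower for 0 and not called for 16. Among the 11 lower members the host was lower for 2 (INE-1{}3645 in *CG9766* and Doc{}CHKov1[Doc1420] in *CHKov1*), higher for 1 (blood{}280 in *Plc21C*, log2 fold change 0.21) and not called for 8. The host's log2 fold change was under 0.2 in size for 21 of these 30 called members. Over the 203 members, which share hosts and libraries, 130 had the sign of their host, with a Pearson r of 0.036 and a Spearman rho of 0.24.

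The insertion in *CHKov1*, where a *Doc* element interrupts a gene annotated as a choline kinase relative, is known from natural fly populations, in which it is polymorphic. Doc{}CHKov1[Doc1420] (FBti0019430, 3R:25324412-25328927) had 766, 915, 769 and 910 in EmcOE and 1002, 1087, 1074 and 1003 in Control samples (log2 fold change -0.31, SE 0.077, adjusted p = 0.0309), without overlap. That call was lost without any 1 of 4 of the samples (adjusted p 0.0594 to 0.0857) and with total counts in place of TMM (adjusted p = 0.074). *CHKov1* had a log2 fold change of -0.33 (adjusted p = 0.0406). The genes with the most members were *Cadps*, with 0 of 15 called (log2 fold changes -0.12 to 0.58), and *CaMKII*, with 0 of 8 (-0.49 to 0.22), both on the fourth chromosome, followed by *CG17698* on 3L with 2 of 7. S{}967 (FBti0020078), in *CG33926*, was also named after its values were seen. It had a log2 fold change of 1.11 that was not called (adjusted p = 0.113), while its host was lower by a log2 fold change of -2.65 (adjusted p = 0.0168).

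**Figure D5:**
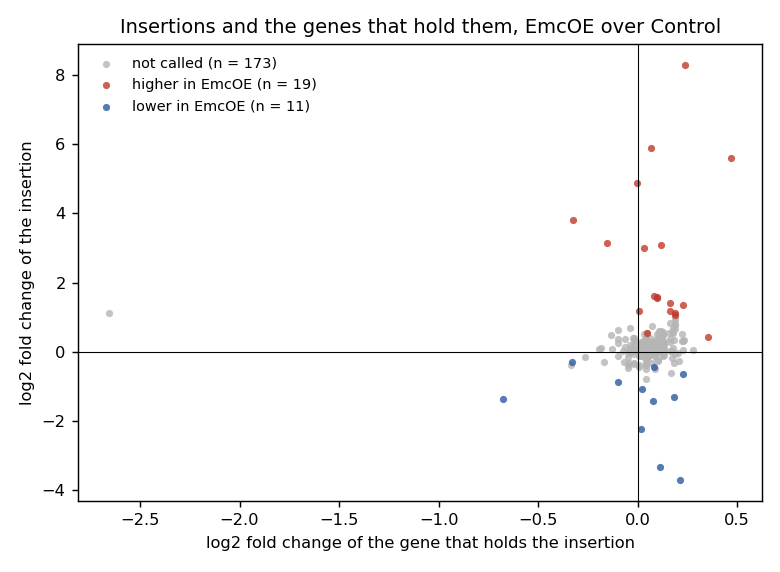
Log2 fold change (EmcOE over Control) of the 203 insertions whose host gene was tested (vertical axis) against that of the host gene (horizontal axis); red points are insertions called higher, blue called lower and grey not called. Most called insertions stand above or below hosts that lie within 0.2 of 0; the grey point at the far left is S{}967 in *CG33926*.

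Calls were also counted by orientation and by exon overlap. Members in the orientation of their host had 11 higher and 5 lower of 115 members (13.9% called). Those in the opposite orientation had 9 higher and 6 lower of 97 (15.5%), beside 8.68% of all features tested. Of 265 members that shared no exon base with any other feature 23 were higher and 16 lower. These were 39 of the 47 calls, and the 265 were likewise most of the 306 members. Of the 21 members that shared bases with a gene's exon 3 were higher and 4 lower (33.3% called), against 12.6% of those inside a gene outside its exons and 17.2% of those between genes. These shares stand beside the same 8.68% of all features tested. With a mean of at least 20 over all samples these shares were 27.8% of 18, 5.75% of 174 and 15.6% of 77, beside 8.37% of all features. The smallest shares were in *1360* and *Doc* copies, such as 1360{}1539 (FBti0019502, named after its values were seen) with 0.74% of its bases in exons of *unc-13* and CR43361.

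Summed over all 306 members, the level was 23634, 25705, 25450 and 25301 in EmcOE and 22423, 22226, 24704 and 24930 in Control samples. These ranges overlapped, the means were 25022 ± 940 and 23571 ± 1444 (SD, n = 4 each), and the ratio was 1.06. The 198 members inside genes and outside exons summed to 15204 ± 831 in EmcOE and 13499 ± 787 in Control samples (ratio 1.13), and the 87 between genes to 8004 ± 119 and 8232 ± 587. Members on the fourth chromosome summed to 13290 ± 484 and 13089 ± 877. The 47 called members summed to 5647 ± 248 and 5160 ± 272, and the 259 members not called to 19376 ± 778 and 18410 ± 1176.

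Genes of the silencing pathways were mostly at similar levels in both groups. Of 66 genes listed for the piRNA and siRNA pathways and for heterochromatin, 49 were tested, 2 were higher and 1 lower (beside 3.57% and 5.12% of all features tested), and the median log2 fold change was 0.031. *AGO2*, the Argonaute that carries siRNAs and the main defence against transposons in body tissues, had 3708 ± 52.0 normalized counts in EmcOE and 4621 ± 69.3 in Control samples (-0.31, SE 0.037, adjusted p = 0.000533), without overlap. *Dcr-2*, which makes those siRNAs, was not called (0.079, adjusted p = 0.446), nor was the gene for the heterochromatin protein HP1a (-0.061, adjusted p = 0.608). Of the Tudor domain genes of the piRNA pathway, *tej* had 101 ± 3.89 in EmcOE and 72.0 ± 8.37 in Control samples (0.50, adjusted p = 0.0382), and *krimp* had 21.5 ± 6.17 and 4.32 ± 2.50, having passed the minimum through EmcOE brains alone. The call of *tej* was lost without any 1 of 7 of the samples (adjusted p 0.0563 to 0.113), all but Control replicate 1, and *krimp* was below the minimum without EmcOE replicate 2. The germline Argonautes *piwi* (10.9 in EmcOE and 14.8 in Control samples) and *AGO3* (12.7 and 12.6) were below the minimum. *aub* had 26.6 ± 4.0 in EmcOE and 44.2 ± 11.3 in Control samples, without overlap (-0.72, adjusted p = 0.0884).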

How the data were processed

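Per the labels and the study's methods, polyadenylated RNA from dissected brains was sequenced in 4 EmcOE and 4 Control samples. The authors trimmed the pairs with BBDuk, mapped them with STAR 2.7.4a in 2 passes to build BDGP6 and counted them with featureCounts 2.0.1 ignoring strand and leaving out chimeras and pairs with an unmapped end. The deposited values are these raw counts for 23932 features, transposon insertions included. No option for pairs on several loci or features was given, and such pairs are then not counted. The deposited coordinates of 5414 of the 5416 insertions were identical in the Ensembl annotation used here for names and for overlap with genes and exons.

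The analysis used edgeR 4.0.16 under R 4.3.3. Normalized counts are counts divided by the TMM-scaled library size and multiplied by the mean of these sizes. Features averaging 20 or more in either group (9788) entered the fit, for which TMM was recomputed. EmcOE was set against Control by edgeR's quasi-likelihood test with group as the sole term and Benjamini-Hochberg adjustment over all 9788. The SE of a log2 fold change was taken as its size divided by the square root of the F statistic of this test. It is approximate for members with few counts in a group, whose fold changes depend on the prior count of the model. Calls need an adjusted p no higher than 0.05 with a change no smaller than 0.2 on the log2 scale, thresholds taken from the study's methods. An adjusted p without another name is from this test, and the method was tested on simulated data. Ratios with at most 3 counts in a group have exact 95% intervals where the mean over all samples was above 20. These intervals pool the pairs of a group and cover counting error only. In the column labels the EmcOE and Control samples of each replicate number share a letter, and nothing says whether they were collected together. Otherwise the replicates are described only as biological, and p-values measure the spread between these samples. No sample was a repeat of another: chi-square per degree of freedom between replicates was 12.4 to 78.9.

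Total counts ranged from 20751513 to 41619980. The alternatives were the replicate block, other scalings, DESeq2 1.42.0, other minimums, a larger fold, and leaving out each sample. The members and the gene lists were chosen with earlier results of these data known. Insertions are named if they are among the 10 largest calls in each direction, the 10 highest means, the calls that passed in 1 group alone or the values at the minimum, and others are marked as named after their values were seen. Sequences of the insertions and genomic DNA were not used here.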

Additional observations from a re-analysis of the deposited data

Results flagged for a closer look

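In 159 groups of 4 samples examined, 8 had 1 sample far from the other 3 by Dixon's test at the 95% level, and chance alone flags about 1 group in 20. Among EmcOE samples, opus{}127 (FBti0019055) had 17.0 normalized counts in replicate 3 beside 9.98 to 10.7 in the others. roo{}1189 (FBti0019285) had 55.1 in EmcOE replicate 3 beside 66.4 to 66.6. Doc{}1053 (FBti0020164) had 13.3 in EmcOE replicate 4 beside 24.1 to 25.4. invader2{}1169 (FBti0020280) had 232.5 in EmcOE replicate 1 beside 328 to 347. HeT-A{}6274 (FBti0102117) had 51.4 in EmcOE replicate 1 beside 19.96 to 24.9. Among Control samples, Stalker2{}106 (FBti0019625) had 398 in replicate 4 beside 316.5 to 320. H{}1737 (FBti0059798) had 204.8 in Control replicate 3 beside 144 to 153, and TART-A{}4601 (FBti0062662) had 294 in the same sample beside 181 to 192. In 7 of these members the call was made with the sample included, and the EmcOE and Control samples did not overlap; TART-A{}4601 was not called.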

How the results depend on the processing

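No member's log2 fold change turned its direction among the calls, and of the 47 called members 37 were also called with the replicate block, 46 with DESeq2's size factors, 42 with total counts and all 47 with DESeq2. The number of calls depended on the minimum: 73 of 2955 insertions without one, 27 with a mean of at least 20 over all samples and 25 with a minimum of 50, and for members outside exons (39) these were 62, 22 and 20. Leaving out 1 sample gave 34 to 43 calls among members, 20 to 27 among those with a mean of at least 20 over all samples and 30 to 38 outside exons. Over every feature (850) it gave 527 (without Control replicate 2) to 957, and requiring a change of 1 on the log2 scale left 197. That threshold left 16 of the 27 members with a mean of at least 20 over all samples and 1 of the 3 silencing genes, of which leaving out 1 sample left 1 to 3, with 1 without EmcOE replicate 2. Hosts called in the direction of the member numbered 5 by gene span and 1 by exons alone. The ratio of summed levels was 1.04 to 1.08 without single samples and 1.12 with total counts. With total counts the split of members was 28 higher and 15 lower, and over every feature 415 higher and 278 lower, against 349 and 501 with TMM.

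Samples of the same replicate number were not more alike in the values: the correlations of same-numbered deviations were -0.49, 0.15, 0.032 and -0.21, and 2 of 8 samples correlated best with their own number. With the replicate block 25 members were higher and 15 lower, and 813 features were called in all.

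Depth limits the members more than genes, since their median level was 38.5 against 562 and a copy's pairs come only from bases that set it apart. Members below the minimum and the DNA of the lines were not analysed here.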
